A study of Mus musculus with 2 samples.

Results

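Macrophages take in lipid from lipoproteins and dying cells, break it down in lysosomes, store part of it as droplets and pass cholesterol back out. The 10 genes described here, picked by name from the 32285 genes measured, cover these steps. Cd36 (a scavenger receptor and fatty acid transporter), Lpl (lipoprotein lipase, a secreted enzyme that frees fatty acids from lipoproteins) and Trem2 (a surface receptor for lipids and lipoproteins) act in uptake. Lipa is the lysosomal acid lipase, Plin2 coats lipid droplets, and Fabp4 and Fabp5 are fatty acid carriers of the cytoplasm. Abca1 and Abcg1 are pumps that export cholesterol, and Apoe is a secreted apolipoprotein that carries it. Cholesterol derivatives activate the nuclear receptor LXR, of which Abca1, Abcg1, Apoe and Lpl are well-known targets in macrophages, while Cd36, Fabp4 and Plin2 are known targets of PPAR receptors.

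The 10 genes were followed in 2 libraries of single cells from mouse ankle joint synovium, 1 at day 7 after clodronate liposomes (200 µL injected retro-orbitally) and 1 from untreated mice, called steady state. Both groups were chimeras, CD45.2 B6 mice given CD45.1 B6 bone marrow with the ankle shielded from irradiation, so that donor cells carry CD45.1 and cells left in the joint carry CD45.2. Live cells were sorted that carried CD45 and CD11b but not CD64, MHCII, Ly6C, CD177, Ly6G or SiglecF, and RNA was counted together with 92 antibodies bound to the cell surface. The number of mice behind each library is not given in the sources used here, and each group is 1 library, so no difference between them could be tested.

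The promoters of the efflux gene Abca1 and of Apoe are shown because both are LXR targets. Whether the letters of these windows bear on the levels below was not tested. The 250 bases before the annotated start are printed 5′ to 3′ on the minus strand, from RefSeq on GRCm38.p6. Capitals mark, in order, a GC box (GGGCGG), an E-box (CACGTG), another GC box, an LXR element (DR4, a direct repeat, found here on the opposite strand) and a TATA box (TATAAA). Both strands were searched, and the marked stretches do not overlap.
Abca1, chr4:53159896-53160145: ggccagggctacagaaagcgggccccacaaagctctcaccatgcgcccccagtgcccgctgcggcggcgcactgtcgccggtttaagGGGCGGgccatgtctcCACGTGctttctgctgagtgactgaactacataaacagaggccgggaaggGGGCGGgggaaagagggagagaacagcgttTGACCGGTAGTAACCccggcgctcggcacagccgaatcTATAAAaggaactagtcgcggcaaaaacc
Apoe, chr7:19699189-19699438: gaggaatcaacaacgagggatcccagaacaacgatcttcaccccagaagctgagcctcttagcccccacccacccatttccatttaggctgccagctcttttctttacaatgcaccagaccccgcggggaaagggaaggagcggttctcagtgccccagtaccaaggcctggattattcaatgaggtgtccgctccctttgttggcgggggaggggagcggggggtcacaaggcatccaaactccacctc
The LXR element reads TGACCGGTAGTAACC. Its letters occur in 58 of 32851 promoter windows of this length (0.177%), against 6.02% for the E-box, 32.7% for the GC box and 12.4% for the TATA box. The Apoe window shown, the one farthest upstream of the 3 that RefSeq gives, holds none of the 4 motifs, and another Apoe window, chr7:19698622-19698871, holds 2 overlapping TATA box matches, 1 on each strand. A match is a description of letters and not a binding site, and the spelling of the LXR motif was chosen after the sequence had been read. RefSeq gave a window for 6 of the 10 genes, and the other windows are not shown.

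After filtering, 1200 cells at day 7 and 1630 at steady state were kept, with 10824984 and 17060676 RNA molecules (UMIs), and the libraries shared no cell barcode. Cells were placed by summed marker UMIs per 10000 UMIs of the cell, with thresholds set after the markers' distributions had been seen and never from the lipid genes. For S100b alone, 1 UMI was enough whatever the depth of the cell. C1q-rich cells, placed by C1qa, C1qb and C1qc, numbered 161 at day 7 and 907 at steady state, and fell into Cd209/Ccl8, Vsig4+ S100b+, Vsig4+ S100b-, Lyve1-high, Aqp1/Fxyd2 and other C1q-high gates. The others were Ly6C-low monocyte-like cells (165 at day 7 and 154 at steady state), classical monocyte-like cells (542 and 164), class II monocyte-like cells, which carried both class II and classical monocyte markers (78 and 88), and class II-only cells (23 and 147), which were led by Mucl1, Ccl17 and Mgl2 and showed too few dendritic cell markers to be named. All 6 pan-macrophage markers, the C1q genes among them, were detected in the C1q-rich gates. They were also detected in class II-only and ungated cells, so they do not set the C1q-rich gates apart. Classical monocyte and class II RNA was therefore present although the sort was set to remove cells with Ly6C and MHCII on the surface. The Ly6C antibody, as a share of antibody counts, was also highest in classical monocyte-like cells in both libraries, among gates of at least 20 cells. RNA without the surface protein is thus not shown for these cells. By the CD45.1 and CD45.2 antibodies, 160 of 165 and 151 of 154 Ly6C-low cells were donor-class, while 95 of 161 and 704 of 907 macrophage-like cells were host-class. Of the macrophage-like cells 20 at day 7 and 134 at steady state were donor-class, and 46 and 69 were left unassigned. Their median antibody counts were 733 and 1304 per cell. Day 7 also brought 162 granulocytic cells, against 8 at steady state, and summed neutrophil marker RNA was higher at day 7 in every other gate, for example 583 against 120 UMIs per 1000000 (CPM) in classical and 186 against 18.3 in Lyve1-high cells. The part of this in any difference below was not tested.

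Levels are given as CPM of the UMIs summed over the cells of a gate, with a 95% exact Poisson interval in brackets where shown. Ratios carry a conditional exact Poisson interval and shares of cells an exact Clopper-Pearson interval. All of these cover counting error only, not differences between mice or preparations, and assume that each UMI is a separate molecule. The Poisson intervals of levels and ratios also leave out variation between the cells of a gate, so they are too narrow where few cells hold most UMIs. A gene was compared where it reached 20 CPM in either group and was called higher or lower past 2-fold, and the share of all compared genes past 2-fold in that direction is given as background. These libraries count 3′ ends, so levels of different genes are not set against each other.

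**Figure D1:**
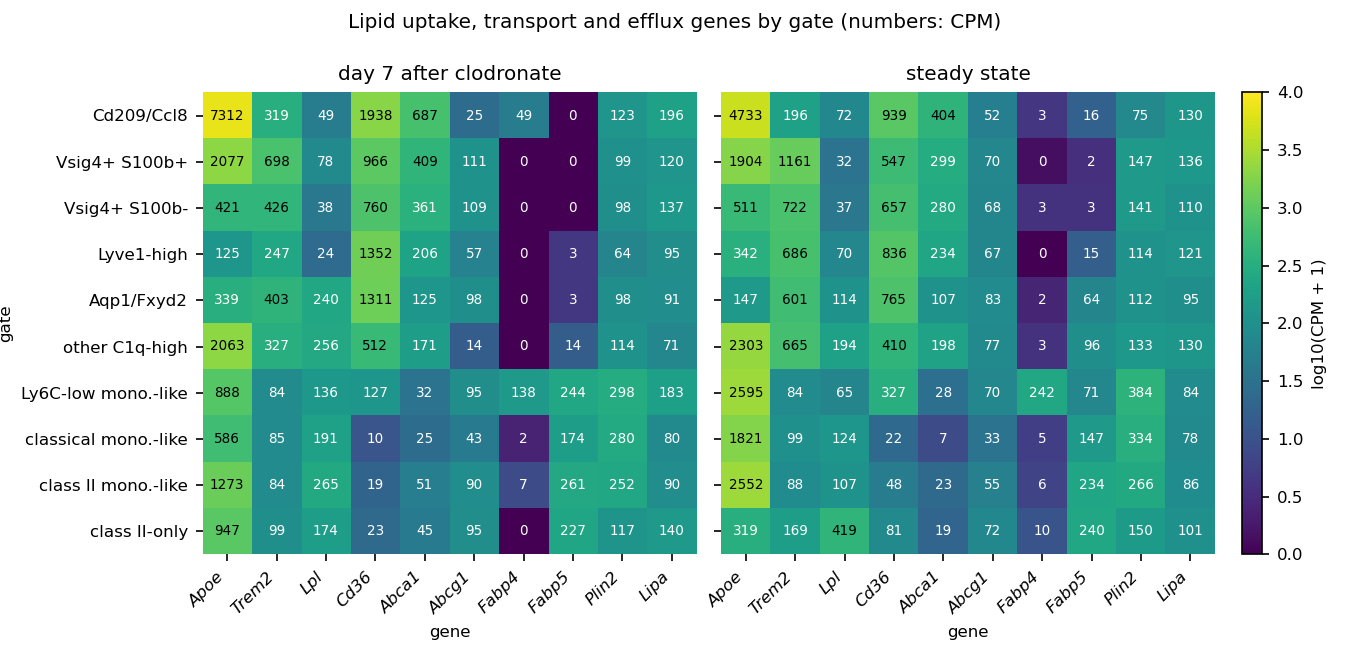
Level of each gene (columns) in each gate (rows) at day 7 and at steady state; numbers are CPM of summed UMIs and colour is log10(CPM + 1). Apoe stands at 7312 CPM at day 7 and 4733 CPM at steady state in the Cd209/Ccl8 gate, Cd36, Trem2 and Abca1 are high over the macrophage rows, and Fabp4 is highest in the Ly6C-low row.

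Of the 10 genes, 6 differed past 2-fold between macrophage-like and monocyte-like cells in the same direction in both libraries. Cd36, Trem2 and Abca1 were higher in macrophage-like than in Ly6C-low and classical monocyte-like cells in both libraries, while Fabp4, Fabp5 and Plin2 were lower. At day 7 Cd36 stood at 1131 CPM in macrophage-like against 30.2 in monocyte-like cells (log2 ratio 5.23, interval 5.0 to 5.45), and at steady state at 688 against 157 CPM (2.13, 1.99 to 2.28). Abca1 stood at 269 against 26.1 CPM at day 7 (3.37, 3.09 to 3.65) and 237 against 16.5 CPM at steady state (3.85, 3.43 to 4.30). Trem2 stood at 421 against 84.9 CPM at day 7 (2.31, 2.13 to 2.49) and 781 against 92.6 CPM at steady state (3.08, 2.90 to 3.26). The whole interval lay past 2-fold for each gene in both libraries.
Plin2 stood at 91.4 CPM in macrophage-like against 283 in monocyte-like cells at day 7 (log2 ratio -1.63, -1.93 to -1.34), and at 127 against 356 CPM at steady state (-1.49, -1.61 to -1.36). Fabp5 was read from 3 UMIs in all macrophage-like cells at day 7 (2.66 CPM, against 186 CPM in monocyte-like cells; log2 ratio -6.13, -8.41 to -4.58) and from 242 UMIs at steady state (24.8 against 113 CPM; -2.19, -2.43 to -1.94). Of the 10 genes, 3 were higher and 3 lower at day 7, against backgrounds of 20.3% higher and 12% lower over all genes; at steady state 3 were higher and 4 lower, against 20.4% and 11.7%. The fourth lower gene at steady state was Apoe, at 1013 against 2163 CPM (log2 ratio -1.10, -1.14 to -1.05), whereas at day 7 it was not past 2-fold, at 1029 against 637 CPM (0.69, 0.60 to 0.79). The day 7 macrophage-like level of Apoe leans on few cells, with 298 UMIs from the 6 Cd209/Ccl8 cells. Abcg1, Lipa and Lpl stayed within 2-fold in both libraries. Abcg1 stood at 84.3 CPM in macrophage-like and 52.1 CPM in monocyte-like cells at day 7, and at 71.2 and 49.2 CPM at steady state.

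Apoe was highest in the small Cd209/Ccl8 gate, macrophages led by Ccl8 and Cd209-family lectins. At day 7 it reached 7312 CPM (6505 to 8191) in only 6 such cells, of which 1 gave 46.6% of the Apoe UMIs. At steady state it was 4733 CPM (4492 to 4983) in 41 cells, and 78% of them held an Apoe UMI. Among gates of at least 20 cells at steady state, this level was above all others, with a log2 ratio of 0.87 (0.78 to 0.96) over the next gate, Ly6C-low monocyte-like cells, so the gate ranked first by less than 2-fold.
Behind it at steady state came the monocyte-like and class II monocyte-like cells and 2 macrophage gates. Apoe stood at 2595 CPM (2506 to 2687) in Ly6C-low cells and 2552 CPM (2447 to 2660) in class II monocyte-like cells, which do not differ beyond counting error. The other C1q-high gate followed at 2303 CPM, with 38.9% of its UMIs from 1 cell, and then Vsig4+ S100b+ macrophages at 1904 CPM (1850 to 1959) and classical monocyte-like cells at 1821 CPM (1755 to 1890), whose intervals overlap. Fibroblast-like cells held 1006 CPM. The lower end was made up of Vsig4+ S100b- macrophages at 511 CPM, Lyve1-high macrophages at 342 CPM, class II-only cells at 319 CPM and Aqp1/Fxyd2 macrophages at 147 CPM (130 to 165). From the top to the bottom of the macrophage gates the steady-state level of Apoe thus ran from 4733 to 147 CPM.
At day 7 the order changed. Among gates of at least 20 cells Vsig4+ S100b+ macrophages were highest at 2077 CPM (1899 to 2267), ahead of class II monocyte-like cells at 1273 CPM (1191 to 1359), but 46.1% of their Apoe UMIs came from 1 of 29 cells. Class II-only cells stood at 947 CPM (834 to 1072) and Ly6C-low cells at 888 CPM (832 to 946), with overlapping intervals, and classical monocyte-like cells at 586 CPM (566 to 607). The lowest myeloid gates were Vsig4+ S100b- (421 CPM), Aqp1/Fxyd2 (339 CPM) and Lyve1-high macrophages (125 CPM), and granulocytic cells held 47.1 CPM.

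**Figure D2:**
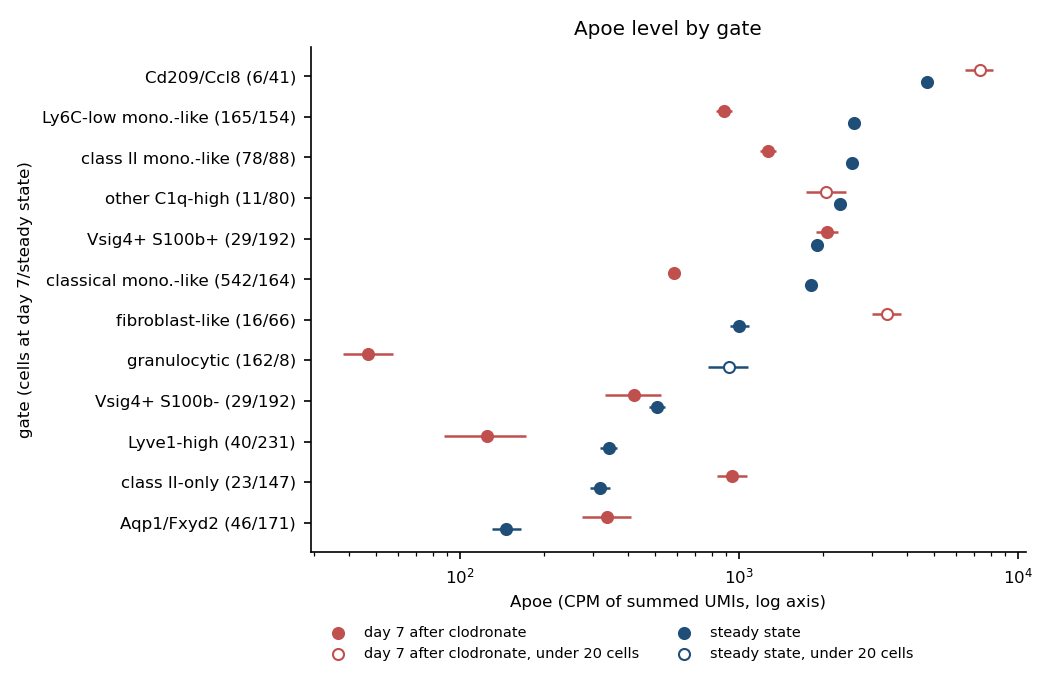
Apoe level in each gate (CPM of summed UMIs, log axis; points are the level, bars the 95% exact Poisson interval; open points are groups of under 20 cells, and cell numbers at day 7/steady state stand beside each gate). The Cd209/Ccl8 gate is rightmost in both libraries, and the day 7 points of Ly6C-low, classical and class II monocyte-like cells lie to the left of their steady-state points.

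The share of cells with an Apoe UMI differed widely among gates. In Cd209/Ccl8 macrophages at steady state the median cell held 3721 CPM. In Vsig4+ S100b+ macrophages 48.3% of cells at day 7 and 54.7% at steady state had an Apoe UMI, and the median cell held 0 and 60.4 CPM. In Ly6C-low cells 69.1% at day 7 and 94.8% at steady state had one, and the median cell held 346 and 2088 CPM. In granulocytic cells at day 7, with a median of 12335 UMIs against 6619 in Ly6C-low cells, the share was 14.2%. After each cell had been thinned to 2000 UMIs the shares were 42.9% at day 7 and 34.6% at steady state in Vsig4+ S100b+ cells, 50.3% and 88.4% in Ly6C-low cells, 80.6% in Cd209/Ccl8 cells at steady state, and 6.72% in day 7 granulocytic cells. The 2 Vsig4+ gates, which share the lining marker Vsig4 and differ in S100b, differed in Apoe at steady state by a log2 ratio of 1.90 (1.79 to 2.00). It was the 1 of the 10 genes past 2-fold between these gates, where 0.601% of all genes were higher and 0.698% lower, and with equal weight per cell the ratio was 1.34. Trem2 differed by 0.69 (0.59 to 0.78), with 1161 CPM in S100b+ and 722 CPM in S100b- cells. Since 1 S100b UMI at any depth placed a cell in the S100b+ gate, deeper cells enter it more readily. Its cells had a median of 12070 UMIs at steady state, against 8713 in S100b- cells. The part of depth in these differences was not tested.

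Among the genes of uptake, Trem2 was found in nearly every Vsig4+ S100b+ macrophage. It stood at 698 CPM (597 to 811) at day 7 and 1161 CPM (1119 to 1204) at steady state, with a UMI in 100% and 99.5% of cells. In fibroblast-like cells, which should lack it, 12.5% of 16 cells at day 7 and 4.55% of 66 at steady state had a Trem2 UMI, at median depths of 4669.5 and 10290.5 UMIs against 7925 and 12070 in the S100b+ gate. The other macrophage gates ranged from 247 to 426 CPM at day 7 and from 196 CPM (Cd209/Ccl8) to 722 CPM at steady state. The Cd209/Ccl8 gate, first for Apoe, was thus last of the macrophage gates for Trem2 at steady state. Monocyte-like and class II monocyte-like cells held 83.6 to 85.1 CPM at day 7 and 84.4 to 99.1 CPM at steady state.
In Lyve1-high macrophages Trem2 fell to 247 CPM (193 to 310) at day 7, against 686 CPM (655 to 719) at steady state, a log2 ratio of -1.48 (-1.83 to -1.14). It was also below its steady-state level, by less than 2-fold, in the 3 other macrophage gates compared and in all macrophage-like cells together (-0.89, -1.03 to -0.76). With stricter gates the Lyve1-high ratio was -0.65, and with cells placed by clusters it was -0.95, both within 2-fold.

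Cd36 RNA was high in all macrophage gates, from 512 to 1938 CPM at day 7 and from 410 to 939 CPM at steady state. The ends of the day 7 range came from gates of 11 cells (other C1q-high) and 6 cells (Cd209/Ccl8), too few to be compared between libraries. Between libraries Cd36 was 1352 against 836 CPM in Lyve1-high (log2 ratio 0.69), 1311 against 765 CPM in Aqp1/Fxyd2 (0.78) and 966 against 547 CPM in Vsig4+ S100b+ macrophages (0.82), with day 7 first, and no macrophage gate compared passed 2-fold. The Cd209/Ccl8 gate, not compared, stood at 1938 against 939 CPM. Among monocytes Cd36 marked the Ly6C-low cells, with 127 CPM (106 to 150) at day 7 and 327 CPM (296 to 361) at steady state, against 10.4 and 21.9 CPM in classical cells.
There the change ran the other way. Cd36 fell in Ly6C-low cells at day 7 (log2 ratio -1.37, -1.66 to -1.08; -1.34 in donor-class cells alone), in class II monocyte-like cells (18.5 against 48 CPM; -1.38, -2.40 to -0.45) and in classical cells (-1.07, -1.72 to -0.41), where it rests on 54 and 34 UMIs and was -0.99 in donor-class cells alone. In Ly6C-low cells 27.3% held a Cd36 UMI at day 7 and 61.7% at steady state, against 0.617% of day 7 granulocytic cells and 4.55% of steady-state fibroblast-like cells. With cells placed by clusters the class II monocyte-like ratio was -0.37.

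The antibody panel held CD36, tagged with the barcode TTTGCCGCTACGACA, and its counts did not follow the RNA over gates. Whether they measure CD36 protein alone in these cells was not tested. Of the macrophage, monocyte and class II gates, classical monocyte-like cells were lowest in Cd36 RNA and had the highest median antibody count, 8 per cell at day 7 and 14 at steady state. Class II monocyte-like cells had 6 and 6.5, and Ly6C-low cells 2 and 2. In the 4 macrophage gates of at least 20 cells the median was 0 to 0.5 at day 7, and it was 0 in all 6 at steady state. As a share of all antibody counts, CD36 took 188 per 10000 in classical cells against 10.1 in macrophage-like cells at day 7, and 170 against 5.13 at steady state. By this share fibroblast-like cells were highest at steady state, at 213 per 10000. They held 10.8 CPM of Cd36 RNA and a median of only 117 antibody counts per cell, against 758 in classical cells.
Over all gates of at least 20 cells, granulocytic or fibroblast-like and ungated cells included, Spearman's rho between Cd36 CPM and the median antibody count was -0.88 at day 7 (10 gates) and -0.74 at steady state (12 gates), as a description, since gates of a library share its preparation and depth. It was the lowest of 15 RNA and antibody pairs in both libraries when antibody counts were taken per 10000 (-0.76 at day 7 and -0.85 at steady state). Of those pairs 12 were positive at day 7 and 14 at steady state, for example Cd163 at 1.0 and 0.93 and Ly6c2 with Ly6C at 0.94 and 0.56. The list of pairs was chosen after the Cd36 values had been seen. Within classical cells at steady state the median antibody count was 20.5 in the 16 cells with a Cd36 UMI and 13 in the 148 without, and at day 7 it was 8 in both.

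**Figure D3:**
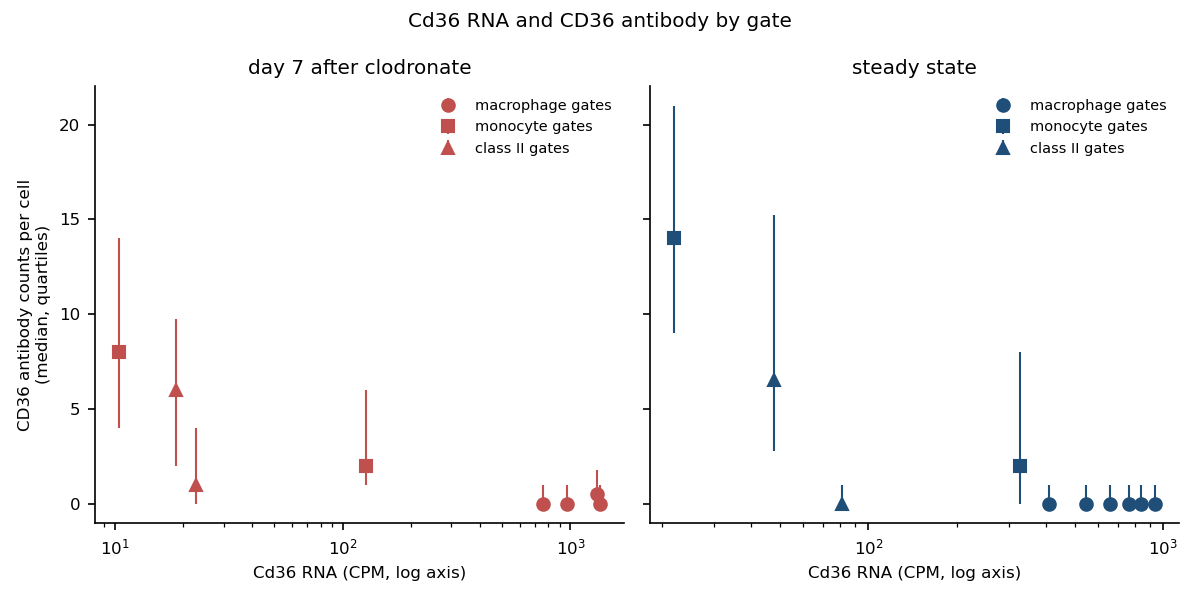
Cd36 RNA (CPM, log axis) against CD36 antibody counts per cell (median, with bars from the lower to the upper quartile) in macrophage, monocyte and class II gates of at least 20 cells, at day 7 and steady state. Macrophage gates lie at the lower right, at antibody medians of 0 to 0.5, and classical monocyte-like cells at the upper left, at 8 and 14.

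Lpl was spread thinly over most gates. Its highest myeloid level at steady state was in class II-only cells, 419 CPM (390 to 449), where it fell to 174 CPM (128 to 233) at day 7 (log2 ratio -1.27, -1.73 to -0.84; -0.27 with stricter gates, within 2-fold). Fibroblast-like cells held 420 and 421 CPM. Lpl rose at day 7 in class II monocyte-like cells, to 265 CPM (228 to 306) against 107 CPM (86.9 to 132) at steady state (1.30, 0.94 to 1.67), and in Ly6C-low cells, to 136 CPM (115 to 160) against 64.9 CPM (51.5 to 80.8) (1.07, 0.67 to 1.48). With stricter gates the class II monocyte-like ratio was 0.20 and the Ly6C-low ratio 0.99. In Ly6C-low cells without a Ly6c2 UMI Lpl was at 76.7 against 86.7 CPM (-0.18), though 22.5% of cells at day 7 and 14.3% at steady state held an Lpl UMI. In classical cells Lpl was at 191 against 124 CPM (0.63), within 2-fold. In macrophages the calls point both ways: higher in Aqp1/Fxyd2 cells (240 against 114 CPM; 1.08, 0.67 to 1.47), lower in Lyve1-high cells (7 UMIs, 23.7 CPM, against 70.4 CPM; -1.57, -2.91 to -0.50) and higher in Vsig4+ S100b+ cells, where 1 cell gave 89.5% of 19 day 7 UMIs. Each of these 3 macrophage calls turned round when cells were placed by clusters, and the S100b+ ratio was -0.071 with equal weight per cell.

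The cytoplasmic carriers divided the monocyte-like cells. Fabp4, best known from fat cells and endothelium, marked Ly6C-low cells, at 138 CPM (117 to 162) at day 7 and 242 CPM (215 to 271) at steady state. No other macrophage, monocyte or class II gate of at least 20 cells exceeded 9.91 CPM. In Ly6C-low cells 25.5% held a Fabp4 UMI at day 7 and 54.5% at steady state, against 0.882% of steady-state macrophage-like cells, which were deeper (a median of 10055 UMIs against 6851.5). The ratio between libraries was -0.81 (-1.10 to -0.52), within 2-fold. All 5 adipocyte markers were at 0 in day 7 Ly6C-low cells and 4 of 5 at steady state, with a summed level of 0.811 CPM, and the endothelial markers Cdh5 and Kdr were at 0 at day 7, with Cdh5 also at 0 at steady state. The other endothelial markers used, Pecam1, Egfl7 and Flt1, are not reported here, and an endothelial part in the Fabp4 level was not tested.
Fabp5 stood higher in Ly6C-low than in classical cells at day 7 (244 against 174 CPM) and lower at steady state (70.6 against 147 CPM). It rose in Ly6C-low cells to 244 CPM (215 to 276) at day 7, against 70.6 CPM (56.5 to 87.1) at steady state, a log2 ratio of 1.79 (1.44 to 2.16). In the other monocyte and class II gates it lay between 174 and 261 CPM at day 7 and between 147 and 240 CPM at steady state, with no gate past 2-fold. In Aqp1/Fxyd2 macrophages 1 UMI was read at day 7 against 121 at steady state (3.39 against 64.2 CPM; log2 ratio -4.24, -9.56 to -1.74), and with cells placed by clusters the ratio was -1.28.

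Plin2 and Lipa passed 2-fold between libraries in at most 1 of the gates compared. Plin2 held 252 to 298 CPM in the 2 monocyte gates and class II monocyte-like cells at day 7 and 266 to 384 CPM at steady state, and 64.2 to 99.1 CPM in the macrophage gates of at least 20 cells at day 7 against 75 to 147 CPM at steady state. For Plin2 no gate compared passed 2-fold between libraries. The lowest ratio was in Lyve1-high macrophages (64.2 against 114 CPM; -0.83, -1.58 to -0.16). Lipa passed 2-fold in 1 gate: in Ly6C-low cells it rose to 183 CPM (158 to 211) at day 7, against 83.6 CPM (68.2 to 101) at steady state (1.13, 0.78 to 1.49). With cells placed by clusters that ratio was 0.92. In macrophage-like cells as a whole Lipa was at 108 CPM at day 7 and 119 CPM at steady state.

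The pumps Abca1 and Abcg1 were distributed differently. Abca1 was highest in macrophage gates, with 404 CPM (336 to 482) in Cd209/Ccl8, 299 CPM in Vsig4+ S100b+, 280 CPM in Vsig4+ S100b-, 234 CPM in Lyve1-high and 107 CPM (92.9 to 123) in Aqp1/Fxyd2 macrophages at steady state. At day 7 the last 4 of these gates stood at 409, 361, 206 and 125 CPM in the same order. Monocyte-like and class II cells held 24.8 to 51.3 CPM at day 7 and 7.08 to 28.4 CPM at steady state.
Abcg1 ran over a narrower range in the same gates. At day 7 it ran from 43.3 CPM in classical monocyte-like cells to 111 CPM in Vsig4+ S100b+ macrophages, and at steady state from 32.8 CPM in classical cells to 82.8 CPM in Aqp1/Fxyd2 macrophages. In both libraries, from the highest gate down to classical cells, the interval of each gate overlapped that of the gate above it, but the intervals of the highest and lowest gates did not overlap. The 2 gates at opposite ends for steady-state Abca1 among macrophages, Cd209/Ccl8 and Aqp1/Fxyd2, stood the other way round for Abcg1, at 52.2 CPM (29.8 to 84.7) and 82.8 CPM (70.3 to 96.8), with overlapping intervals.

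Over the 20 groups of a gate and a library with at least 20 cells, log2(CPM + 1) of Abca1 and Abcg1 gave a Pearson correlation of 0.38 and a Spearman correlation of 0.37. By likeness to Abca1, Abcg1 ranked 3511th of 9446 genes. In the 18 macrophage, monocyte and class II groups the values were 0.43 and 0.30. In each library alone the Pearson correlation was 0.79 at day 7 (9 groups) and 0.11 at steady state (11 groups), and the Spearman correlation 0.77 and 0.05. Without the granulocytic group at day 7 and the fibroblast-like group at steady state, the Pearson correlation was 0.44 over 8 groups and 0.49 over 10, while the Spearman correlation was 0.67 and -0.03. The Pearson gap between libraries thus rested on those groups, and the rank gap did not. Groups of a library share its preparation, and these values are descriptions. Thinned to 2000 UMIs per cell, Abcg1 was read in 5 of 54 macrophage-like cells with Abca1 (9.26%, 3.08 to 20.3) and 12.3% of those without it at day 7, and in 45 of 300 (15%, 11.2 to 19.6) and 13.4% at steady state, with overlapping intervals in both libraries. In class II monocyte-like cells at day 7 it was read in 5 of 9 cells with Abca1 (55.6%, 21.2 to 86.3) and 6 of 63 without (9.52%, 3.58 to 19.6). The intervals overlapped in every other gate read this way.
Over the 20 groups Apoe gave Pearson correlations of 0.22 with Abca1 and 0.18 with Abcg1, and over the 18 groups -0.086 and -0.18. By library, Apoe with Abcg1 stood at 0.79 at day 7 and -0.11 at steady state, and at 0.45 and -0.46 without the granulocytic and fibroblast-like groups. Apoe with Abca1 stood at 0.44 and -0.026, and at -0.18 and -0.026 without them. Abca1 was closer to Cd36 (0.80) and Trem2 (0.75) and ran opposite to Fabp5 (-0.67), and Abcg1 was closest to Lipa (0.78) and Trem2 (0.74), which stood at 0.53 and 0.32 over the 18 groups.
Over the 20 groups, genes most like Abca1 included Maf, a transcription factor of resident macrophages (0.96), Adam9 (0.95), Nr1d2 (0.94) and Pros1 (0.94). Those most like Abcg1 were Ubl3 (0.95), Plek (0.94), Adcy7 (0.94), Laptm5 (0.93) and Il10ra (0.92), and those most like Apoe were Lgals3bp (0.80), Slfn5 (0.78), Ifi35 (0.77), Ifnar2 (0.76) and Fundc1 (0.74). Over the 18 groups the first of each were Ccdc152 for Abca1 (0.97), Adcy7 for Abcg1 (0.82) and the chemokine Ccl3 for Apoe (0.87).

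**Figure D4:**
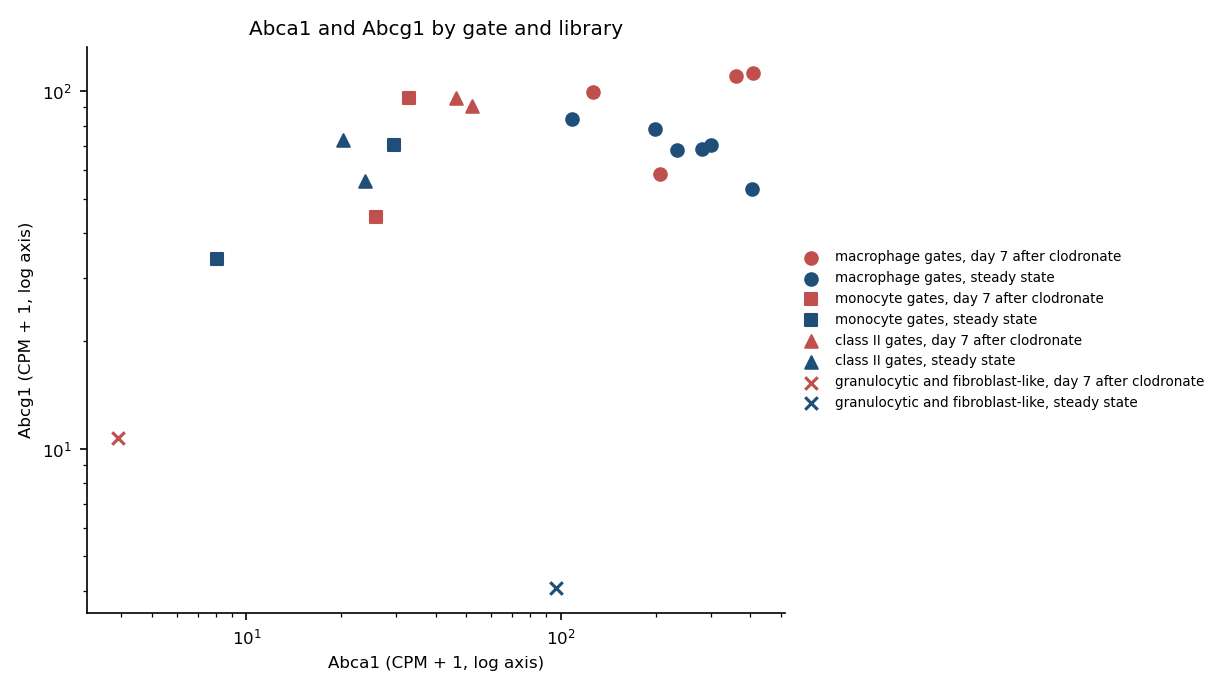
Abca1 against Abcg1 (CPM + 1, both axes logarithmic) in the 20 groups of a gate and a library with at least 20 cells; shape gives the class and colour the library. Macrophage groups spread along the Abca1 axis from 107 to 409 CPM while their Abcg1 stays between 52.2 and 111 CPM, and the fibroblast-like group at steady state lies lowest, at 3.09 CPM of Abcg1.

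Between libraries the pumps also differed in their ratios in classical monocyte-like cells. Abca1 stood there at 24.8 CPM (20.7 to 29.5) at day 7, from 129 UMIs, and 7.08 CPM (3.53 to 12.7) at steady state, from 11 UMIs (log2 ratio 1.81, 0.92 to 2.85), while Abcg1 was 43.3 against 32.8 CPM (0.40, -0.04 to 0.87). With cells placed by clusters the Abca1 ratio was -0.06. In class II monocyte-like cells Abca1 was 51.3 against 22.9 CPM (1.16, 0.34 to 2.03) and Abcg1 89.7 against 54.9 CPM (0.71, 0.14 to 1.28). In the macrophage gates compared neither pump passed 2-fold.

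Between day 7 and steady state, Apoe fell in monocyte-like cells. In classical cells it was 586 CPM (566 to 607) at day 7 against 1821 CPM (1755 to 1890) at steady state, a log2 ratio of -1.64 (-1.71 to -1.56). In Ly6C-low cells it was 888 against 2595 CPM (-1.55, -1.65 to -1.44). In class II monocyte-like cells it was 1273 against 2552 CPM (-1.0, -1.12 to -0.89), at the 2-fold line, and the ratio was -0.84 with stricter gates and -0.68 with cells placed by clusters. In thinned cells an Apoe UMI was read in 50.3% against 88.4% of Ly6C-low and 45.6% against 68.6% of classical cells. Over both monocyte gates together 3 of 10 genes were lower (Apoe, Cd36 and Fabp4) and none higher, where 2.03% of all genes were lower and 2.37% higher, but Ly6C-low cells made up 165 of 707 of them at day 7 and 154 of 318 at steady state. In donor-class cells alone the ratios were -1.53 in Ly6C-low and -1.69 in classical cells. The classical ratio was -0.79 with cells placed by clusters, within 2-fold, and the Ly6C-low ratio -1.85.
Ly6C-low cells differed between libraries in the most genes. Fabp5, Lipa and Lpl were higher and Apoe and Cd36 lower, 3 and 2 of 10, where 3.91% of all genes were higher and 3.66% lower. Splitting them by Ly6c2, the classical monocyte marker, kept 4 of these directions in both subsets. Since 1 Ly6c2 UMI at any depth was enough, deeper cells enter the subset with Ly6c2 more readily. At least 2000 UMIs were held by 75 of 89 and 90 of 105 cells without Ly6c2, and by 68 of 76 and 48 of 49 with it. The part of depth in this split was not tested. Among cells without a Ly6c2 UMI (89 at day 7 and 105 at steady state) the log2 ratios were -1.85 for Apoe, 2.87 for Fabp5, 1.33 for Lipa and -1.29 for Cd36. Among cells with Ly6c2 (76 and 49) they were -1.24, 1.0, 0.95 and -1.11 in the same order. Lpl was 2.27 in cells with Ly6c2 and -0.18 in those without, where 1 cell gave 30.5% of the 59 steady-state UMIs. With equal weight per cell Lpl in cells without Ly6c2 averaged 126 CPM at day 7 and 80.7 CPM at steady state. Its direction in cells without Ly6c2 thus depends on the weighting. Abcg1 passed 2-fold in cells without Ly6c2 (1.09, 0.52 to 1.67). The counts were 3 higher and 2 lower of 10 without Ly6c2 (background 7.3% and 5.52%), and 2 and 2 of 10 with it (6.95% and 5.42%).
In classical cells 1 of 9 genes compared was higher (Abca1; background 3.01%) and 2 were lower (Apoe and Cd36; 1.37%). In class II monocyte-like cells 2 of 9 were higher (Lpl and Abca1; 5.77%) and 2 lower (Apoe and Cd36; 3.34%). Class II-only cells, with 23 cells at day 7, had 2 of 9 higher (Apoe at 947 against 319 CPM, and Abca1; 10.5%) and 2 lower (Lpl and Cd36; 6.92%). Of these, the Apoe, Abca1 and Cd36 ratios of class II-only cells turned round when cells were placed by clusters.
Macrophage gates gave fewer and less stable calls. None of 8 genes compared passed 2-fold in Vsig4+ S100b- cells, where the background was 9.39% higher and 6.81% lower, and 1 of 8 did in Vsig4+ S100b+ cells (Lpl; 7.96% higher, 5.32% lower). In Lyve1-high cells 3 of 8 were lower (Apoe at 125 against 342 CPM, Trem2 and Lpl) and none higher, against 4.89% lower and 6.79% higher. In Aqp1/Fxyd2 cells 2 of 9 were higher (Apoe at 339 against 147 CPM, and Lpl; 9.49%) and 1 lower (Fabp5; 4.46%). With stricter gates the Aqp1/Fxyd2 ratio of Apoe was 0.39. The Apoe and Lpl calls in these last 2 gates turned round when cells were placed by clusters. Over all macrophage-like cells Apoe was 1029 CPM at day 7 and 1013 CPM at steady state, and 1 of 9 genes compared was past 2-fold (Fabp5, lower), against backgrounds of 0.945% lower and 1.16% higher. The day 7 Apoe level leans on few cells. It includes 298 UMIs from the 6 Cd209/Ccl8 cells, 46.6% of them from 1 cell, and a single cell gave much of the Apoe of the Vsig4+ S100b+ gate.

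**Figure D5:**
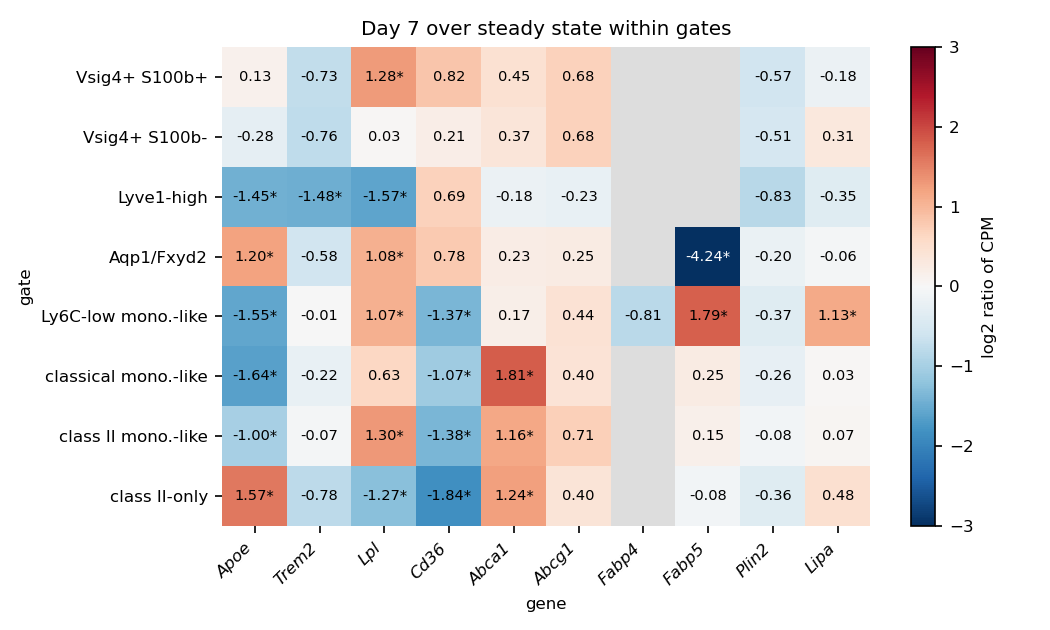
Log2 ratio of CPM, day 7 over steady state, for each gene (columns) in each gate (rows); numbers with a star are past 2-fold and grey cells were under 20 CPM in both libraries. Apoe is lower in Ly6C-low (-1.55), classical (-1.64) and class II monocyte-like cells (-1.0), and Trem2 is below 0 in every row. The Trem2 intervals of the libraries overlap in Ly6C-low (83.6 against 84.4 CPM), classical (85.1 against 99.1 CPM) and class II monocyte-like cells (84.0 against 88.0 CPM).

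Ly6C-low and classical cells shared 3 differences in both libraries. Fabp4, Cd36 and Abcg1 were past 2-fold higher in Ly6C-low cells, with log2 ratios of 6.49, 3.61 and 1.13 at day 7 and 5.75, 3.90 and 1.09 at steady state. Lipa passed at day 7 (1.2), where 4 of 10 were higher and none lower (background 5.74% and 6.96%). At steady state Abca1 passed (2.00, 0.99 to 3.13, on 11 UMIs in classical cells), with 4 of 10 higher and 1 lower (Fabp5, -1.06; background 6.67% and 5.13%), and the Abca1 ratio was -0.040 with cells placed by clusters. Class II-only cells against class II monocyte-like cells at steady state had Apoe lower (319 against 2552 CPM; -3.0, -3.13 to -2.87; background 7.99%) and Lpl higher (419 against 107 CPM; 1.96, 1.65 to 2.29; background 11.4%), and at day 7 the Apoe ratio was -0.43 and Plin2 alone was past 2-fold (-1.10; background 9.11% lower, 13% higher).

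The CD45 antibodies split the macrophage-like cells by origin. In 704 host-class against 134 donor-class cells at steady state, Lpl (log2 ratio -2.03, -2.26 to -1.80) and Fabp5 (-3.08, -3.48 to -2.69) were lower in host-class cells, 2 of 9 genes against a background of 2.91%, and none was past 2-fold higher (4.91%). Abca1 (0.94, 0.72 to 1.16), Trem2 (0.68) and Apoe (0.52) were above donor-class levels by less than 2-fold, and with fixed antibody thresholds Abca1 was at 1.11. At day 7, with 95 host-class and 20 donor-class cells, Lpl was lower (-1.74, -2.33 to -1.14) and Abca1 higher (1.31, 0.56 to 2.17), against backgrounds of 11.2% and 16.4%, and Apoe was -0.91.
Origin goes with gate, since 60 of the 134 donor-class cells at steady state were in the Aqp1/Fxyd2 and 42 in the other C1q-high gate. Within Aqp1/Fxyd2 cells Lpl (-1.65) and Fabp5 (-1.50) were again lower in host-class cells (2 of 9; background 3.62%), and none was higher (6%). Within other C1q-high cells, a gate led by Arg1, Spp1 and Retnla, Apoe (1.97, 1.78 to 2.16), Abca1 (1.42) and Trem2 (1.18) were higher and Lpl (-3.36) and Fabp5 (-2.18) lower in 30 host-class against 42 donor-class cells, with backgrounds of 15.2% and 11.2%. Of the Apoe UMIs of this gate 38.9% came from a single cell, so the Apoe interval is too narrow. The origin class of that cell was not read. Within Lyve1-high cells Apoe was higher (1.21; background 7.77%) and Fabp5 lower (-2.41; background 5.93%) in 199 host-class against 21 donor-class cells.

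Other lipid genes were read from 9 lists that overlap with the 10 genes; each count includes members of both. In Ly6C-low cells at day 7 the LXR targets had 3 of 13 genes higher and 2 lower, where 3.91% of all genes were higher and 3.66% lower (median log2 ratio 0.17, against 0.077 over all genes): Nr1h3, which encodes LXR alpha itself, stood at 74.2 against 10.5 CPM (2.81, 1.96 to 3.79) and the desaturase Scd2 at 64.8 against 28.4 CPM (1.19), while the apolipoprotein Apoc2 was at 477 against 957 CPM (-1.0, -1.16 to -0.85). The list of genes known from TREM2-type lipid macrophages had 4 of 7 higher and none lower there (median 1.03): the lysosomal protease Ctsd (1.03) and the tetraspanin Cd63 (1.86, from 20.7 against 5.68 CPM) beside Fabp5 and Lpl. By Ly6c2 its median was -0.018 in cells without a Ly6c2 UMI (3 of 7 higher; background 7.3%) and 0.57 in cells with one (3 of 6; 6.95%). Of the scavenger receptors 2 of 9 were higher, Msr1 at 99.6 against 36.5 CPM (1.45) and Cxcl16 (1.85), and 1, Cd36, lower. Of the genes of lysosomal lipid handling 2 of 7 were higher, Lipa and the cholesterol transporter Npc1 (57.3 against 25.2 CPM; 1.19). The lipid droplet genes had 1 of 9 higher, the triglyceride enzyme Dgat2 (1.05), and 1 lower, the lipase inhibitor G0s2 (-1.17). PPAR targets had 1 of 8 lower, Cd36, and none higher, and none of 6 TREM2 signalling, 7 fatty acid oxidation or 10 cholesterol synthesis genes passed 2-fold. The cholesterol synthesis list differed by Ly6c2, with 1 of 10 higher and 2 lower (median -0.43) in cells without a Ly6c2 UMI and 4 of 12 higher and none lower (median 0.87) in cells with one.
In classical cells 2 of 13 LXR targets were higher (Abca1, and Scd2 at 1.37) and 2 lower (Apoe, and Pltp, the phospholipid transfer protein, at -1.28), with a median of 0.45 against 0.14 and backgrounds of 3.01% higher and 1.37% lower. PPAR targets and scavenger receptors each had Cd36 lower and no gene higher, and the other 6 lists had no gene past 2-fold. Class II monocyte-like cells had 2 of 12 LXR targets higher (Lpl and Abca1) and 2 lower (Apoe, and Pltp at -1.41), where 5.77% of all genes were higher and 3.34% lower, Msr1 higher (121 against 40 CPM; 1.60), Npc1 higher (86.9 against 30.9 CPM; 1.49), and the cholesterol enzyme Mvd (1.64, on 15 and 6 UMIs) higher. In the TREM2-type list Spp1 (1 against 97 UMIs; -6.28, -11.60 to -3.77) and Cd9 (-2.72) were lower, and among lipid droplet genes G0s2 was read in 0 against 38 UMIs. Of 6 PPAR targets Cd36 alone was past 2-fold, and no TREM2 signalling or fatty acid oxidation gene was.
In macrophage-like cells the cholesterol synthesis list, which the transcription factor SREBP2 switches on when cell cholesterol is low, had a median log2 ratio of 0.64 at day 7 against 0.12 over all genes, with 1 of 10 genes higher and none lower (background 1.16% and 0.945%). The synthesis enzyme Hmgcs1 stood at 0.91 (0.56 to 1.24), within 2-fold. Within gates the list had 7 of 14 genes higher and none lower in Aqp1/Fxyd2 cells (median 1.02; background 9.49% higher), 5 of 11 in Lyve1-high cells (0.77; 6.79%), 1 of 9 in Vsig4+ S100b+ cells (0.60; 7.96%) and 0 of 10 in Vsig4+ S100b- cells (0.50; 9.39%). The scavenger list had 1 of 8 genes higher and 1 lower in macrophage-like cells, the lower being Cd68 (222 against 478 CPM; -1.11), and the TREM2-type list had Spp1 (7.1 against 87 CPM; -3.62) and Fabp5 lower, with a median of -0.62. LXR targets, PPAR targets, lysosomal, lipid droplet, TREM2 signalling and fatty acid oxidation lists had no gene past 2-fold there.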

How the data were processed

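RNA and antibody counts per cell barcode were used as the authors deposited them: per the file headers these are whole-number UMI counts from Cell Ranger 6.1.2, and the submitters' processing notes name genome build mm10 and Seurat 4.4.0, the role of Seurat not being stated. A barcode entered with 500 or more UMIs, 200 or more genes and no more than 10% of UMIs from mitochondrial genes, after which Scrublet calls (scanpy 1.11.5; 10 at day 7 and 7 at steady state) were taken out. Counts were then added up by gate and library, scaled to CPM and given 95% exact Poisson intervals, which cover counting error only; a ratio needed 20 CPM in 1 of its groups and 20 cells in each. Gates were applied in order: fibroblast, granulocytic, C1q-rich and its subsets, Ly6C-low, class II and classical markers, with fixed minimums per 10000 UMIs. The exception was S100b, with a minimum of 1 UMI per cell. Origin came from a 2-component mixture of the CD45 antibody ratio at a posterior of 0.95. With 1 library per group, no test was run. The members, the 9 gene lists and the markers were chosen with earlier results of these data known; the motif letters, the antibody pairs, the Ly6c2 split, the single-origin fits and the correlations without granulocytic and fibroblast-like groups were chosen after the data had been seen. Named genes were the 10 members, the 5 genes most correlated with each of Apoe, Abca1 and Abcg1, and from each list up to 4 others per comparison, the 2 highest and 2 lowest, ranked on whichever end of the interval lay closer to equal levels; some genes that meet this rule are not reported here. Python 3.11.15, numpy 2.4.6, scipy 1.17.1, pandas 2.3.3, scikit-learn 1.9.0 and matplotlib 3.10.9 were used. The code was tested on simulated data.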

Additional observations from a re-analysis of the deposited data

Results flagged for a closer look

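Apoe, Lpl and Fabp5 moved past 2-fold in opposite directions in different gates, day 7 over steady state, and the difference between gates was not tested, since each library is 1 sample. For Apoe the log2 ratio was -1.55 in Ly6C-low, -1.64 in classical and -1.0 in class II monocyte-like cells and -1.45 in Lyve1-high macrophages, but 1.2 in Aqp1/Fxyd2 macrophages and 1.57 in class II-only cells. For Lpl it was 1.28 in Vsig4+ S100b+ and 1.08 in Aqp1/Fxyd2 macrophages, 1.07 in Ly6C-low and 1.30 in class II monocyte-like cells, but -1.57 in Lyve1-high macrophages and -1.27 in class II-only cells. For Fabp5 it was 1.79 in Ly6C-low cells and -4.24 (-9.56 to -1.74) in Aqp1/Fxyd2 macrophages, where 1 UMI was read at day 7. With cells placed by clusters the Apoe ratios of Aqp1/Fxyd2 and class II-only cells were -1.59 and -5.01, that of Lyve1-high cells was 1.30, and the 3 macrophage Lpl ratios turned round. The Lpl value of Vsig4+ S100b+ macrophages rests on 1 cell with 89.5% of 19 UMIs.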

How the results depend on the processing

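No paired analysis was possible because each group is 1 library, and for the same reason no replicate could be left out. All day 7 comparisons set 1 library against another, so mice, sort and preparation cannot be told apart from treatment, and day 7 gates of 6 to 46 macrophage-like cells limit what can be read there. Of 27 ratios past 2-fold between libraries, all kept their direction with at most 5% mitochondrial UMIs, at least 2000 UMIs, doublets kept or a total without ribosomal, mitochondrial and granulocyte genes; 23 of 24 did with stricter gates (16 still past 2-fold), 24 of 25 with equal weight per cell (22), 23 of 23 within 1 origin class (21) and 18 of 27 with Leiden clusters in place of gates (12). Of 22 ratios past 2-fold between cell classes within a library, 21 kept their direction with Leiden clusters and all 22 did under each other setting just named that bears on them. The cause of the changes below was not tested.
With Leiden clusters these day 7 ratios turned round: Abca1 in classical cells (-0.062, from 1.81), Apoe in Lyve1-high (1.30), Aqp1/Fxyd2 (-1.59) and class II-only cells (-5.01), Lpl in Vsig4+ S100b+ (-1.58), Lyve1-high (1.04) and Aqp1/Fxyd2 cells (-0.97), and Cd36 (0.35) and Abca1 (-0.38) in class II-only cells, as did steady-state Abca1 in Ly6C-low over classical cells (-0.040, from 2.00). Lpl in Vsig4+ S100b+ cells turned to -0.071 with equal weight, Cd36 in class II-only cells to 0.86 with stricter gates, and Lpl in Ly6C-low cells to -0.18 without Ly6c2. Apoe in Ly6C-low cells was -1.87 with stricter gates, -1.85 with clusters, -1.85 without and -1.24 with Ly6c2. In classical cells Apoe was -1.51 with equal weight and -0.79 with clusters. Trem2 in Lyve1-high cells was -0.65 with stricter gates and -0.95 with clusters. Fabp5 in Ly6C-low cells was 2.47 with stricter gates, 2.87 without and 1.0 with Ly6c2. At steady state the lead of the Cd209/Ccl8 gate in Apoe was 0.76 with at most 5% mitochondrial UMIs and 0.67 with equal weight, and S100b+ over S100b- Apoe was 1.79, 1.77, 1.34 and 4.51 with at most 5% mitochondrial UMIs, stricter gates, equal weight and clusters. The Abca1 and Abcg1 correlation was 0.25 with stricter gates, 0.79 at day 7 and 0.11 at steady state alone, and 0.49 at steady state without fibroblast-like cells. With a minimum of 5 CPM, 24 of 90 list counts moved by over 1.5 times.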

Other observations

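Some gene lists held many genes past 2-fold between macrophage-like and monocyte-like cells at steady state, where 20.4% of all genes were higher and 11.7% lower. Of the TREM2-type list 5 of 8 genes were higher in macrophage-like cells and 1 lower, with a median log2 ratio of 2.53 against 0.20 over all genes, led by the tetraspanins Cd63 (831 against 12.2 CPM; 6.09) and Cd9 (3.99). Of the scavenger receptors 5 of 10 were higher and 3 lower, with Stab1, a clearance receptor of resident macrophages, at 158 against 2.87 CPM (5.79). The lipid droplet list went the other way, with 5 of 9 lower and none higher (median -1.16), and G0s2, an inhibitor of triglyceride breakdown, at -8.55 (-10.83 to -6.99, on 3 against 321 UMIs). Among LXR targets 4 of 12 were higher and 3 lower: Pltp was higher (3.63), while Apoc2, which activates lipoprotein lipase, stood at 4.41 against 635 CPM (-7.17). PPAR targets had 3 of 8 higher and 2 lower, genes of lysosomal lipid handling 3 of 9 and 1, fatty acid oxidation 2 of 8 and 1, TREM2 signalling 1 of 6 and 2, and cholesterol synthesis 1 of 9 and 1, several of these near the shares over all genes. Lists share genes with each other and with the 10 members.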
